A study of Mus musculus with 19 samples.

Results

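Oxidative phosphorylation is built from parts encoded by both genomes of the cell, and its transcripts were followed here in mouse bone marrow monocytes with and without G-CSF. The members were the rows of the deposited gene table typed as protein-coding whose symbol names a subunit of respiratory complexes I to IV or of ATP synthase (complex V), or a complex I assembly factor of the Ndufaf family. This gave 107 of 33559 rows, 94 from the nuclear genome and 13 from the mitochondrial genome. The measure was FPKM from bulk RNA-seq, the number of sequenced fragments corrected for the length of the gene and the size of the library.

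There were 3 libraries of monocytes treated with G-CSF (G-CSF 1, 2 and 3) and 2 of monocytes with no treatment (no G-CSF 1 and 2). All 5 were labelled bone marrow monocytes of wild-type genotype, and the labels give neither the dose and route of G-CSF, nor age or sex, nor how the monocytes were purified. Nothing in them tells if the replicates are different animals or cultures, so p-values measure only the spread between these libraries, which may be technical. The series holds 19 mouse samples in all, and its 14 single-cell libraries of skin were not analysed here. G-CSF is the cytokine that drives granulocyte production in bone marrow.

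As background, complexes I and II pass electrons from NADH and succinate to ubiquinone, complex III passes them to cytochrome c, and complex IV to oxygen. Complexes I, III and IV pump protons as they do so, and ATP synthase makes ATP from the returning protons. The mitochondrial genome encodes the hydrophobic core of complexes I, III, IV and V, while complex II and all other subunits are nuclear. The mitochondrial genes are transcribed from both strands as long precursors that are later cut, so their transcripts share a source in a way that those of nuclear subunits do not. Monocytes carry out both glycolysis and respiration.

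Library depth and character were not even. At least 5911052 to 6988609 reads lay behind the values of the G-CSF libraries, against 5981805 in no G-CSF 1 and 2923773 in no G-CSF 2, as counted back from the FPKM values. The 85 tested nuclear members with recovered reads had medians of 259, 222 and 216 reads in G-CSF 1, 2 and 3, against 161 and 64 in no G-CSF 1 and 2, so the last library fixes their levels least well. No G-CSF 2 also stood apart in that 3.31% of its reads lay in the 13 mitochondrial members, against 0.519% to 1.31% in the other 4 libraries. Though its reads were fewest, it had the most rows above 0, at 29425 against 24361 to 26073 in the others. The 10 monocyte markers, among them Csf1r, Ccr2 and Ly6c2, had summed levels of 472, 391 and 489 FPKM in the G-CSF libraries, against 248 and 171 FPKM in the no-G-CSF libraries. None was at 0 in any library. For 7 of the 10, all G-CSF libraries were above both others (above without overlap), and 1, Irf8, was below. Over all genes tested, 20% were above and 11.9% below in this way. Markers of other marrow cells were also present, and 10 neutrophil markers summed to 2783, 4095 and 2581 FPKM in G-CSF libraries, against 7145 and 1648 FPKM in no-G-CSF libraries. Of these, Camp was below without overlap, at a log2 fold change of -2.69, Mmp8 above, at 1.99, and the others overlapped. The 6 granulocyte progenitor markers summed to 528, 698 and 549 FPKM in G-CSF libraries, against 288 and 151 FPKM in no-G-CSF libraries. Their median log2 fold change was 1.91, with 4 above without overlap (Mpo, Elane, Prtn3 and Ctsg). The other 2 had negative log2 fold changes, -1.30 for Gfi1, which was below without overlap, and -0.70 for Cebpe. All 8 B cell markers had a negative log2 fold change, with sums of 111, 141 and 146 FPKM with G-CSF, against 388 and 177 FPKM without. Erythroid markers summed to 90.2, 781 and 113 FPKM with G-CSF, against 1353 and 352 FPKM without, so that G-CSF 2 and no G-CSF 1 were the high libraries. Sums of the megakaryocyte and platelet markers (348 to 555 FPKM with G-CSF, against 276 and 748 FPKM without) and of the marrow macrophage markers (662 to 1142 FPKM with G-CSF, against 432 and 1420 FPKM without) overlapped between groups. Within the first list, Itga2b and Gp9 were below without overlap, at log2 fold changes of -1.82 and -1.41, while Pf4 and Ppbp overlapped. Among the macrophage markers, Axl was below without overlap, at -2.76, Adgre1 above, at 1.26, and the others overlapped. In bulk libraries, a smaller share of cells of a type cannot be told apart from less RNA per cell, and the part of cell makeup in the results below was not tested.

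No member passed the test of G-CSF against no G-CSF. Of the 107 members, 103 reached an FPKM of 1 in at least 2 libraries (90 nuclear and all 13 mitochondrial) and were read from a limma fit of log2(FPKM + 1) over all 16791 genes that passed this filter. At an adjusted p under 0.05, 0 members were called higher and 0 lower, beside 0.00596% of all genes (0.0095% of the protein-coding genes) called higher and 0% called lower, and the smallest limma adjusted p of a member was 0.261. Before adjustment, 13 members had p under 0.05 on the higher side and 1 on the lower side, against backgrounds of 7.9% and 4.76% of all genes tested and 8.3% and 3.6% of protein-coding genes. The number at that unadjusted threshold moved between 3 and 35 higher as each library was left out in turn. With only the 10524 protein-coding rows in the fit, 0.285% of genes were called higher and 0.0285% lower, and 0 members were among them, with a smallest limma adjusted p of 0.144.

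The nuclear members nevertheless lay mostly on one side. Their median log2 fold change was 0.48, with 78 of 90 positive, beside a median of 0.08 over all genes tested and 0.12 over protein-coding genes, with 56.3% and 59.9% positive. All 3 G-CSF libraries lay above both no-G-CSF libraries for 40 of the 90, or 44.4%, beside 20% of all genes and 23.7% of protein-coding genes tested. The 3 nuclear members with all G-CSF libraries below both others were Cox7a1, Cox6b2 and Uqcrc2, beside 11.9% of all genes. The median held its sign with either no-G-CSF library alone, at 0.45 without no G-CSF 2 and 0.54 without no G-CSF 1, and lay between 0.34 and 0.52 under other pseudocounts and scalings. The 13 mitochondrial members had a median of -0.40, with 4 positive and 9 negative, and their groups overlapped for every one of them. That median was 0.84 without no G-CSF 2, -1.40 without no G-CSF 1 and 0.19 without G-CSF 2, so leaving out either replicate 2 turned its sign.

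**Figure D1:**
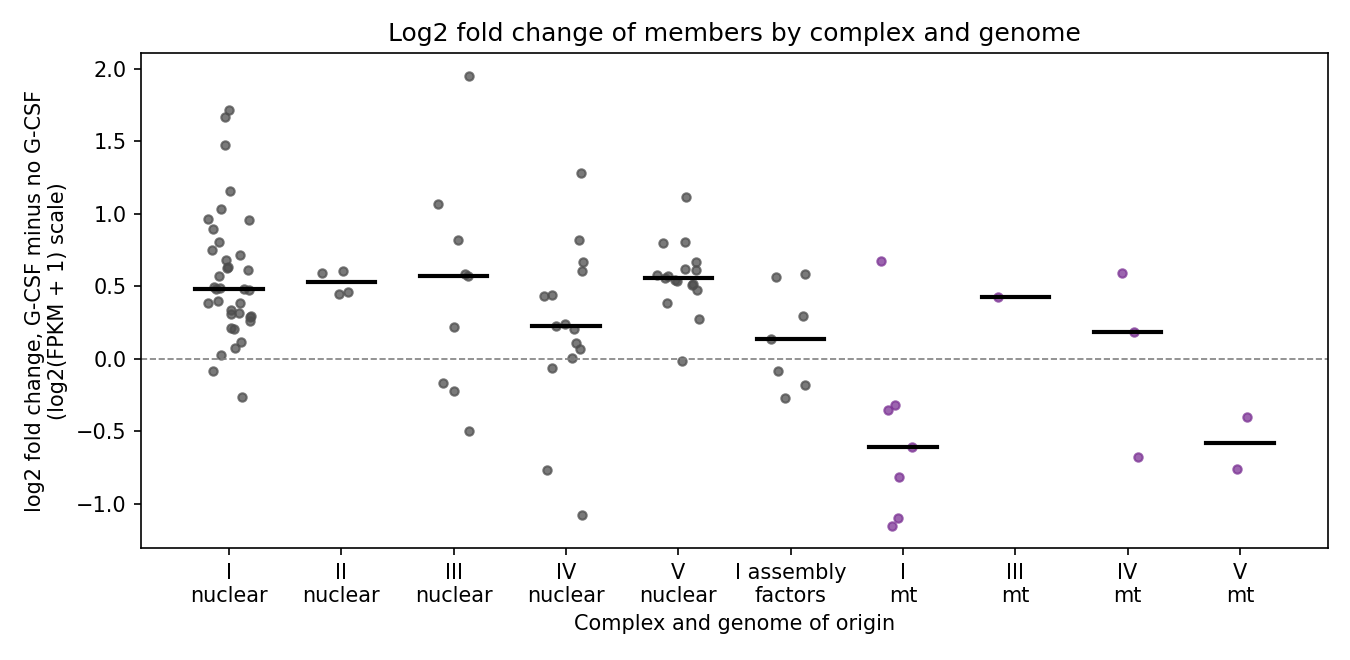
Log2 fold change of each tested member (vertical axis, G-CSF minus no G-CSF on the log2(FPKM + 1) scale), by complex and genome of origin, with 1 point per gene and a bar at the median. Grey points are nuclear members and purple points mitochondrial (mt) members; nuclear medians run from 0.14 for the complex I assembly factors to 0.57 for complex III, and the 7 mitochondrial complex I members have a median of -0.61.

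Complex I, the NADH dehydrogenase at the entry of the chain, had 37 tested nuclear subunits, 35 of them with a positive log2 fold change and a median of 0.48. For 19 of the 37 (51.4%), every G-CSF library lay above both no-G-CSF libraries, beside 23.7% of protein-coding genes tested. The smallest p belonged to Ndufa7, an accessory subunit encoded at chr17:33824572-33838317 (GRCm38). Ndufa7 was at 13.9, 12.4 and 14.0 FPKM with G-CSF, against 5.88 and 6.94 FPKM without. The 3 G-CSF values lay close together and all of them were above both others by more than the spread within either group (log2 fold change 0.96 with SE 0.23 and limma adjusted p = 0.261). Ndufa7 had this direction with any 1 library left out, at 0.86 to 1.06.

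The promoter window of Ndufa7 is shown as the one that belongs to the member with the smallest p. It covers the 250 bases upstream of 1 of 2 annotated starts, chr17:33824322-33824571 on the plus strand of GRCm38.p6 (RefSeq), and holds none of the 3 motifs described below, so no base is in capitals.
Ndufa7: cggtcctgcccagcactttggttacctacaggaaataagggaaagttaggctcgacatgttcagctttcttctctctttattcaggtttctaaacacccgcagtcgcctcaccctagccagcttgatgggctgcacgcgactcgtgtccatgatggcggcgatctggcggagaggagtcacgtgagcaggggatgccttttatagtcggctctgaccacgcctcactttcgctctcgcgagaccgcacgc

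Ndufa5 measured 6.42, 3.39 and 6.99 FPKM in G-CSF 1 to 3, against 1.88 and 0.839 FPKM in no G-CSF 1 and 2. Ndufa5, an accessory subunit of the matrix arm, was lowest in no G-CSF 2, and the groups did not overlap (log2 fold change 1.47 with SE 0.37 and limma adjusted p = 0.278). Its values rested on 3 reads in no G-CSF 2 and 18 in no G-CSF 1. Ndufb3 had 16.5, 13.1 and 22.4 FPKM in the G-CSF libraries, against 7.75 and 2.65 FPKM in the no-G-CSF libraries. Ndufb3, which sits in the membrane arm, had the same low library, with no overlap (log2 fold change 1.67 with SE 0.45 and limma adjusted p = 0.294). Only 7 reads lay behind its value in no G-CSF 2, and its log2 fold change was 1.03 without that library. Ndufa1 was at 59.1, 16.2 and 44.3 FPKM with G-CSF, against 8.47 and 11.7 FPKM without. For Ndufa1, a small membrane subunit encoded on the X chromosome, G-CSF 2 lay near the no-G-CSF libraries and G-CSF 1 and 3 well above them, without overlap (log2 fold change 1.72 with SE 0.57 and limma adjusted p = 0.345).

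The core subunits carry out electron transfer through a flavin and a chain of iron-sulfur clusters. Ndufs1 measured 6.66, 7.36 and 7.14 FPKM in G-CSF 1 to 3, against 6.76 and 4.46 FPKM in no G-CSF 1 and 2. Ndufs1, a cluster-bearing subunit of the NADH module, was lowest in no G-CSF 2, while no G-CSF 1 fell within the G-CSF range. Ndufv1 had 17.5, 20.4 and 20.1 FPKM in the G-CSF libraries, against 13 and 21.2 FPKM in the no-G-CSF libraries. For Ndufv1, which binds NADH and the flavin, no G-CSF 2 was the highest library and no G-CSF 1 the lowest. Ndufv2 was at 15.5, 9.82 and 12.6 FPKM with G-CSF, against 10.6 and 5.64 FPKM without. Ndufv2, a partner of Ndufv1, overlapped between groups, since no G-CSF 1 was above G-CSF 2. Ndufs7 measured 19.4, 14.2 and 21.4 FPKM in G-CSF 1 to 3, against 10.3 and 28.0 FPKM in no G-CSF 1 and 2. Ndufs7, which holds the last cluster before ubiquinone, spread most between the no-G-CSF libraries, which lay on either side of all G-CSF values, and its log2 fold change was 0.07 with an SE of 0.46.

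Other accessory subunits of complex I covered the rest of the range. Ndufa2 had 52.7, 46.9 and 52.3 FPKM in the G-CSF libraries, against 30.3 and 32.3 FPKM in the no-G-CSF libraries. Ndufa2, an accessory subunit of the NADH module, had groups that did not overlap (log2 fold change 0.68 with SE 0.25 and limma adjusted p = 0.377). The 2 subunits with a negative log2 fold change were Ndufb1 and Ndufb2, both small subunits of the membrane arm, at -0.26 and -0.08. Ndufb1 was at 10.1, 7.05 and 9.74 FPKM with G-CSF, against 7.37 and 15.8 FPKM without. No G-CSF 2 was the high library for Ndufb1, and the other 4 lay together.

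Complex II oxidises succinate in the tricarboxylic acid cycle and is the one complex with no mitochondrially encoded subunit. All 4 of its subunits had every G-CSF library above both no-G-CSF libraries, beside 23.7% of protein-coding genes tested. Their median log2 fold change was 0.53. None of the 4 passed the test, with limma adjusted p values of 0.442 to 0.489. Sdha measured 29.1, 25.1 and 27.3 FPKM in G-CSF 1 to 3, against 23.4 and 13.1 FPKM in no G-CSF 1 and 2. Sdha, the flavoprotein, was lowest in no G-CSF 2, and no G-CSF 1 lay just under the lowest G-CSF library. Sdhb had 31.0, 33.3 and 27.9 FPKM in the G-CSF libraries, against 23.4 and 21.0 FPKM in the no-G-CSF libraries. Sdhb, the iron-sulfur subunit, had a gap between groups about the size of the spread among the G-CSF libraries. Sdhc was at 23.9, 16.5 and 25.3 FPKM with G-CSF, against 13.1 and 14.9 FPKM without. Sdhd measured 38.1, 30.4 and 40.5 FPKM in G-CSF 1 to 3, against 25.2 and 26.7 FPKM in no G-CSF 1 and 2. For Sdhc and Sdhd, which anchor the complex in the membrane, G-CSF 2 was the G-CSF library nearest to the untreated ones. The log2 fold changes were 0.60 ± 0.32 for Sdha, 0.45 ± 0.25 for Sdhb, 0.59 ± 0.29 for Sdhc and 0.46 ± 0.27 for Sdhd (SE). Without no G-CSF 2, that of Sdha was 0.20.

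Sdha is also the member whose promoter window held the most motif matches among those printed. The window covers chr13:74350241-74350490 on the minus strand of GRCm38.p6 (RefSeq), the 250 bases upstream of the start, read in the direction of the gene, with 3 matches to the NRF-1 motif in capitals. NRF-1 is a transcription factor known for its sites in promoters of respiratory chain genes.
Sdha: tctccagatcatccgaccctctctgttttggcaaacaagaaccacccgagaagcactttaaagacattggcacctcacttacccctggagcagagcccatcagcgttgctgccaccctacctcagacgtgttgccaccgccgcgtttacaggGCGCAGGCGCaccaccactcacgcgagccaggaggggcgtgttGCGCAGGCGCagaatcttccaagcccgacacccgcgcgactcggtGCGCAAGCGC

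**Figure D2:**
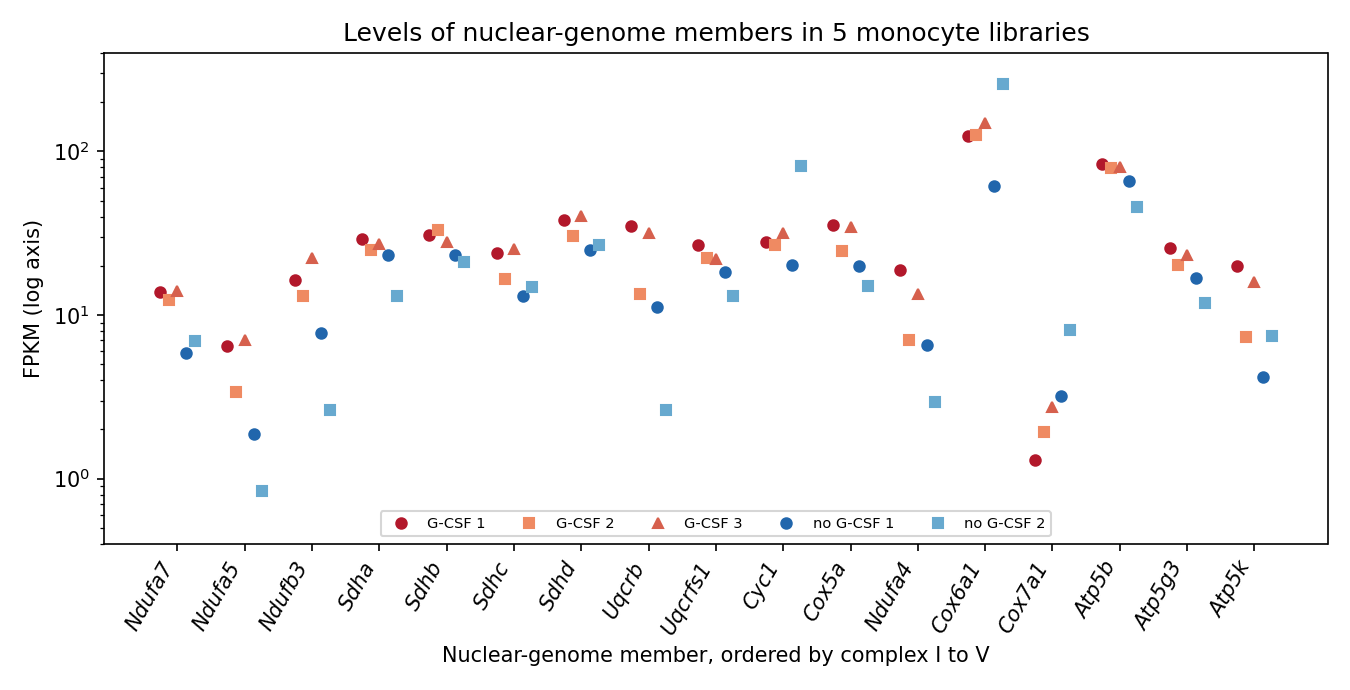
FPKM (log axis) of 17 nuclear members in each of the 5 libraries, with G-CSF libraries in red shades to the left of no-G-CSF libraries in blue shades. All 4 complex II subunits show G-CSF above no G-CSF, while Cyc1 and Cox6a1 show no G-CSF 2 above and no G-CSF 1 below the G-CSF libraries, and Cox7a1 shows all G-CSF libraries below both others.

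Complex III, the cytochrome bc1 complex, had 9 tested nuclear members with a median log2 fold change of 0.57, 6 of them positive. Its members were divided, with 3 above (33.3%) and 1 below (11.1%) without overlap, beside 23.7% and 11.3% of protein-coding genes tested. The median was 0.49 without no G-CSF 2 and 0.24 without no G-CSF 1. Uqcrb had 35.1, 13.5 and 31.6 FPKM in the G-CSF libraries, against 11.2 and 2.63 FPKM in the no-G-CSF libraries. Uqcrb, a small subunit that contacts ubiquinone, had the highest fold change among the tested members. Its log2 fold change was 1.95 with SE 0.64 and limma adjusted p = 0.345. It fell to 1.08 without no G-CSF 2, where the level was lowest and rested on 8 reads. Uqcrh was at 31.1, 18.6 and 28.9 FPKM with G-CSF, against 16.2 and 8.39 FPKM without. Uqcrh, the hinge protein that lies beside cytochrome c1, had no overlap (log2 fold change 1.07 with SE 0.38 and limma adjusted p = 0.368). Uqcrfs1 measured 27.0, 22.5 and 22.1 FPKM in G-CSF 1 to 3, against 18.4 and 13.1 FPKM in no G-CSF 1 and 2. Uqcrfs1, the Rieske iron-sulfur protein, was likewise above without overlap, with a log2 fold change of 0.58 ± 0.27 (SE). Without no G-CSF 2, the log2 fold change of Uqcrh was 0.63 and that of Uqcrfs1 was 0.35.

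Uqcrc1 had 26.9, 27.2 and 29.0 FPKM in the G-CSF libraries, against 20.4 and 27.3 FPKM in the no-G-CSF libraries. Uqcrc2 was at 15.1, 14.9 and 13.1 FPKM with G-CSF, against 16.4 and 17.6 FPKM without. The core proteins Uqcrc1 and Uqcrc2, which face the matrix, thus did not share an order: Uqcrc1 was lowest in no G-CSF 1 with no G-CSF 2 among the G-CSF libraries, and Uqcrc2 was a little lower in all G-CSF libraries, with a log2 fold change of -0.23 ± 0.23 (SE). Cyc1 measured 28.0, 26.7 and 31.5 FPKM in G-CSF 1 to 3, against 20.1 and 82.1 FPKM in no G-CSF 1 and 2. Uqcr11 had 43.0, 27.0 and 53.6 FPKM in the G-CSF libraries, against 19.0 and 104 FPKM in the no-G-CSF libraries. Cyc1, the cytochrome c1 that hands electrons to cytochrome c, and the small subunit Uqcr11 were highest in no G-CSF 2 and lowest in no G-CSF 1. The log2 fold change of Cyc1 was -0.50 with both no-G-CSF libraries and 0.49 without no G-CSF 2.

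The promoter window of Uqcrh is shown beside that of Sdha because it carries another motif. In each complex, the window taken was that of the nuclear subunit with the smallest p that had one. Those of Cox5a and Atp5g3 held none of the motifs described below and are not printed. The Uqcrh window is as follows. It covers chr4:116075071-116075320 on the minus strand of GRCm38.p6 (RefSeq), read in the direction of the gene, and the capitals mark the reverse complement of the ETS motif CCGGAAG, to which GABP, a regulator of respiratory genes, is known to bind.
Uqcrh: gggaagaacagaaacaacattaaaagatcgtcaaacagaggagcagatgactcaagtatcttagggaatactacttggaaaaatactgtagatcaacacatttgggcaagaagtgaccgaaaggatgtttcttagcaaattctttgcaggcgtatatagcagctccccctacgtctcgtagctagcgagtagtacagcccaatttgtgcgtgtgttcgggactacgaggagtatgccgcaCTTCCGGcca

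Motifs were counted on both strands in the 250 bases upstream of annotated starts, in 81 windows of 76 nuclear members. The NRF-1 motif, GCGCA then any base then GCGC, was in 18.5% of these windows, in 8.49% of 10709 windows of protein-coding genes tested and in 3.74% of all 32851 windows. The ETS motif CCGGAAG was in 17.3%, 14.4% and 6.91% of the same 3 sets, and the YY1 motif AAGATGGC in 1.23%, 2.05% and 1.56%. Counting 1 window per gene, the NRF-1 motif was in 8 of 34 members with all G-CSF libraries above, against 5 of 41 other tested nuclear members, and the ETS motif in 7 of 34 against 6 of 41. These are letter matches and say nothing of binding, and their relation to the levels was not tested.

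Complex IV, cytochrome c oxidase, had 18 nuclear members counting Ndufa4, which is bound to it, and 15 passed the filter. Their median log2 fold change was 0.23, the lowest of the nuclear complexes, and it was 0.38 without no G-CSF 2 and 0.022 without no G-CSF 1. For the 12 that are not tissue isoforms it was 0.33, with 0.67 and 0.33 under the same omissions. Cox5a was at 35.3, 24.6 and 34.7 FPKM with G-CSF, against 19.8 and 15.0 FPKM without. Ndufa4 measured 18.8, 7.07 and 13.5 FPKM in G-CSF 1 to 3, against 6.54 and 2.92 FPKM in no G-CSF 1 and 2. Cox5a, a subunit on the matrix side, and Ndufa4 were the 2 members with all G-CSF libraries above both others (log2 fold change 0.82 with SE 0.30 and limma adjusted p = 0.368 for Cox5a and log2 fold change 1.28 with SE 0.48 and limma adjusted p = 0.378 for Ndufa4). The log2 fold change of Ndufa4 was 0.81 without no G-CSF 2. These 2 were 13.3% of the tested nuclear members of the complex, beside 23.7% of protein-coding genes tested.

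The most abundant nuclear members belonged to this complex and split the no-G-CSF libraries. Cox6b1 had 144, 142 and 164 FPKM in the G-CSF libraries, against 86.4 and 283 FPKM in the no-G-CSF libraries. Cox6a1 was at 124, 126 and 149 FPKM with G-CSF, against 61.3 and 259 FPKM without. Cox4i1 measured 111, 114 and 107 FPKM in G-CSF 1 to 3, against 67.3 and 136 FPKM in no G-CSF 1 and 2. Cox6b1, which faces cytochrome c, Cox6a1, the common form of its subunit, and Cox4i1, the common form of subunit IV, had every G-CSF library between no G-CSF 1 and no G-CSF 2. Their log2 fold changes were -0.06, 0.07 and 0.20 with SEs of 0.55, 0.63 and 0.39. Cox5b had 38.8, 21.1 and 31.7 FPKM in the G-CSF libraries, against 10.5 and 43.3 FPKM in the no-G-CSF libraries. Cox7a2 was at 23.7, 13.7 and 14.7 FPKM with G-CSF, against 15.4 and 6.72 FPKM without. Cox5b, which binds zinc, was also split in this way, while for Cox7a2, the common form of subunit VIIa, no G-CSF 1 lay among the G-CSF libraries.

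Tissue forms of complex IV subunits were near the floor of detection. Cox7a1 measured 1.30, 1.92 and 2.75 FPKM in G-CSF 1 to 3, against 3.22 and 8.09 FPKM in no G-CSF 1 and 2. Cox7a1, the heart and muscle form, was the 1 member lower with G-CSF at an unadjusted p, in all 3 libraries (log2 fold change -1.08 with SE 0.41 and limma adjusted p = 0.381). Its log2 fold change was -0.52 without no G-CSF 2, the library with the highest level, and its values rested on 6 to 16 reads per library. Cox6b2 had 0.630, 0.835 and 0.844 FPKM in the G-CSF libraries, against 1.07 and 3.38 FPKM in the no-G-CSF libraries. Cox6b2, the testis form, was lower in all G-CSF libraries as well, with a log2 fold change of -0.77 ± 0.37 (SE) that was -0.23 without no G-CSF 2 and rested on 6 to 13 reads per library. Cox8b was at 0, 1.14 and 1.86 FPKM with G-CSF, against 0.598 and 0.801 FPKM without. Cox8b, a muscle form, was listed at 0 in G-CSF 1 and overlapped between groups. Cox6a2, the muscle form, Cox4i2, the lung and hypoxia form, and Ndufa4l2, a hypoxia-induced relative of Ndufa4, did not pass the filter. Ndufa4l2 was at or under 0.263 FPKM in every library and Cox4i2 at or under 0.522 FPKM, while Cox6a2 reached 2.55 FPKM in no G-CSF 2 and 0.983 FPKM at most elsewhere.

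ATP synthase, which turns the proton gradient into ATP, lay mostly on the same side as complexes I and II. Of its 17 nuclear members, 16 had a positive log2 fold change, with a median of 0.56. For 11 (64.7%), every G-CSF library lay above both others, beside 23.7% of protein-coding genes tested. Atp5a1 measured 133, 89.9 and 131 FPKM in G-CSF 1 to 3, against 68.9 and 87.8 FPKM in no G-CSF 1 and 2. Atp5b had 83.8, 79.6 and 80.6 FPKM in the G-CSF libraries, against 66 and 45.6 FPKM in the no-G-CSF libraries. For the alpha and beta subunits of the catalytic head, encoded by Atp5a1 and Atp5b, the groups did not overlap, and Atp5a1 in G-CSF 2 was close to no G-CSF 2. Atp5g3 was at 25.8, 20.3 and 23.2 FPKM with G-CSF, against 16.9 and 11.8 FPKM without. Atp5g3, 1 of the genes for the rotating c ring, was above in all G-CSF libraries (log2 fold change 0.66 with SE 0.28 and limma adjusted p = 0.402). Without no G-CSF 2, the log2 fold change was 0.42 for Atp5g3 and 0.30 for Atp5b. Atp5k measured 20.0, 7.35 and 15.8 FPKM in G-CSF 1 to 3, against 4.19 and 7.49 FPKM in no G-CSF 1 and 2. Atp5k, the e subunit of the membrane part, led its complex with a log2 fold change of 1.11 ± 0.47 (SE), though G-CSF 2 lay just under no G-CSF 2.

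Atp5c1 had 39.6, 18.8 and 38.3 FPKM in the G-CSF libraries, against 19.2 and 15.3 FPKM in the no-G-CSF libraries. Atp5o was at 9.97, 4.59 and 6.57 FPKM with G-CSF, against 4.47 and 3.66 FPKM without. In the central stalk gene Atp5c1 and in Atp5o, which joins the head to the outer stalk, G-CSF 2 was near the no-G-CSF level and G-CSF 1 and 3 were higher. Atp5e measured 36.8, 31.9 and 38.5 FPKM in G-CSF 1 to 3, against 21.4 and 40.1 FPKM in no G-CSF 1 and 2. Atp5j had 8.29, 6.60 and 8.97 FPKM in the G-CSF libraries, against 5.39 and 11.7 FPKM in the no-G-CSF libraries. Atp5e, the epsilon subunit, and Atp5j, a part of the outer stalk, were highest in no G-CSF 2 and lowest in no G-CSF 1, and Atp5j was the 1 member of the complex with a negative log2 fold change, at -0.02.

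Complex I assembly factors, which build the complex and are not part of it, had a median of 0.14, with 4 of 7 tested positive and Ndufaf2 under the filter. Ndufaf7 was at 2.89, 3.23 and 2.14 FPKM with G-CSF, against 1.66 and 1.40 FPKM without. Ndufaf7, a mitochondrial methyltransferase, was the one factor above without overlap (log2 fold change 0.56 with SE 0.25 and limma adjusted p = 0.417). Ndufaf8 measured 9.76, 9.74 and 11.4 FPKM in G-CSF 1 to 3, against 5.16 and 29.1 FPKM in no G-CSF 1 and 2. Ndufaf8 was highest in no G-CSF 2 and lowest in no G-CSF 1. Ndufaf4 and Ndufaf6 were at 0.501 to 1.52 FPKM with G-CSF and at 0 to 1.40 FPKM without, too low to order the groups.

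The difference between the no-G-CSF libraries varied with GC content, and its median changed sign only in the members of highest GC. Over the 86 tested nuclear members with a known transcript, the log2 difference of no G-CSF 2 over no G-CSF 1 correlated with transcript GC content at r = 0.449 (Spearman 0.488). Over 10209 nuclear protein-coding genes, r was 0.371. Both are descriptions across genes of the same 2 libraries, and genes are not independent replicates. Among the members of highest GC (28 genes, 54.5% to 63.3%), the median difference of no G-CSF 2 over no G-CSF 1 was 0.51. Among the 28 of lowest GC (38.4% to 48.8%) it was -0.36, and among the 30 between them (49.0% to 54.4%) it was -0.38. In the highest-GC members the median log2 fold change was 0.53 without no G-CSF 2 and -0.10 without no G-CSF 1. In the lowest-GC members it was 0.30 and 0.57, and in the 30 between them 0.48 and 0.80. Whether GC content or depth accounts for the split of such genes as Cyc1, Cox6a1 and Ndufs7 was not tested.

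**Figure D3:**
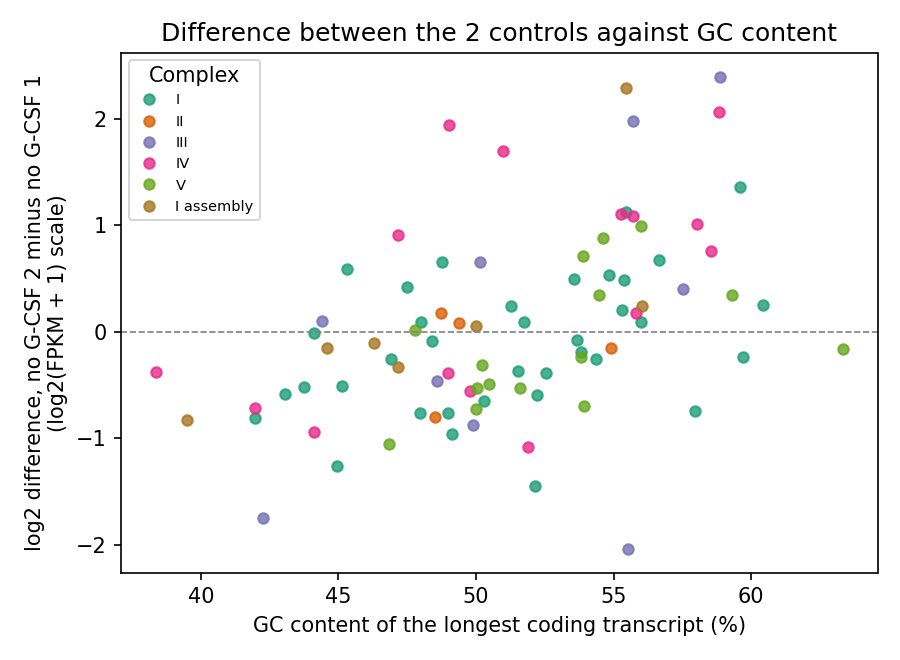
Log2 difference of no G-CSF 2 minus no G-CSF 1 (vertical axis, log2(FPKM + 1) scale) against the GC content of the longest coding transcript in percent, with 1 point for each of 86 tested nuclear members, coloured by complex. Members of high GC lie mostly above 0 and those of low GC mostly below it, with r = 0.449.

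The mitochondrial genome was read at far higher levels, and its 13 members spread widely among the G-CSF libraries as well as between the groups. mt-Co1 had 1972, 844 and 1834 FPKM in the G-CSF libraries, against 1261 and 1293 FPKM in the no-G-CSF libraries. For mt-Co1, the catalytic core of complex IV that reduces oxygen, both no-G-CSF libraries lay between G-CSF 2 and the other G-CSF libraries, with a log2 fold change of 0.18 ± 0.61 (SE). mt-Co2 was at 1085, 251 and 1064 FPKM with G-CSF, against 309 and 624 FPKM without. mt-Co3 measured 578, 252 and 584 FPKM in G-CSF 1 to 3, against 486 and 1026 FPKM in no G-CSF 1 and 2. mt-Co2, which accepts electrons from cytochrome c, was highest in G-CSF 1 and 3, while mt-Co3, the third core subunit of complex IV, was highest in no G-CSF 2. mt-Cytb had 558, 134 and 580 FPKM in the G-CSF libraries, against 195 and 351 FPKM in the no-G-CSF libraries. mt-Cytb, the cytochrome b of complex III, had G-CSF 1 and 3 on top and G-CSF 2 at the bottom.

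Across the 13 members, G-CSF 1 was 2.18 to 5.45 times and G-CSF 3 was 2.17 to 4.33 times as high as G-CSF 2, so replicates of the treated group differed from each other in all of them. Over the 90 nuclear members the same ratios had medians of 1.27 and 1.26. G-CSF 2 and no G-CSF 1 were the 2 lowest libraries for each of the 13 mitochondrial members. They had the highest erythroid sums, at 781 and 1353 FPKM. Their neutrophil sums were also the highest, at 4095 and 7145 FPKM, against 1648 to 2783 FPKM in the other libraries. The part of erythroid or neutrophil RNA in the mitochondrial levels was not tested. The mitochondrial ribosomal RNAs also differed, with mt-Rnr1 at 8569, 156 and 4636 FPKM in the G-CSF libraries, against 182 and 373 FPKM in the no-G-CSF libraries. The range was narrower for mt-Rnr2, at 4865, 774 and 2666 FPKM with G-CSF, against 1362 and 918 FPKM without. Its order in the no-G-CSF libraries was the reverse of that of mt-Rnr1.

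The mitochondrial genes with the highest ratios of no G-CSF 2 over no G-CSF 1 were mt-Nd4, mt-Nd5, mt-Nd6 and mt-Nd2, all of complex I. mt-Nd4 was at 585, 263 and 718 FPKM with G-CSF, against 250 and 4234 FPKM without. mt-Nd5 measured 869, 398 and 1003 FPKM in G-CSF 1 to 3, against 412 and 5913 FPKM in no G-CSF 1 and 2. mt-Nd6 had 1859, 648 and 2274 FPKM in the G-CSF libraries, against 668 and 9088 FPKM in the no-G-CSF libraries. For mt-Nd4 and mt-Nd5, proton-pumping subunits of the membrane arm, and mt-Nd6, the 1 member on the other strand, no G-CSF 2 stood far above the remaining 4 libraries, at 16.9, 14.3 and 13.6 times no G-CSF 1. No G-CSF 1 was close to G-CSF 2 for all 3 genes. mt-Nd2 was at 231, 71.3 and 276 FPKM with G-CSF, against 81.3 and 786 FPKM without. mt-Nd1 measured 486, 126 and 466 FPKM in G-CSF 1 to 3, against 181 and 808 FPKM in no G-CSF 1 and 2. mt-Nd3 had 230, 42.3 and 183 FPKM in the G-CSF libraries, against 67.4 and 357 FPKM in the no-G-CSF libraries. mt-Nd2, mt-Nd1 and mt-Nd3, also membrane subunits, had the same high library with a smaller gap, 9.66, 4.46 and 5.30 times no G-CSF 1. The ratio of mt-Atp8, of complex V, was 6.62, above those of mt-Nd1 and mt-Nd3. mt-Nd4l was at 502, 141 and 572 FPKM with G-CSF, against 178 and 260 FPKM without. mt-Nd4l, which lies next to mt-Nd4 and shares bases with it, did not follow mt-Nd4, since no G-CSF 2 was 1.46 times no G-CSF 1 and below G-CSF 1 and 3.

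**Figure D4:**
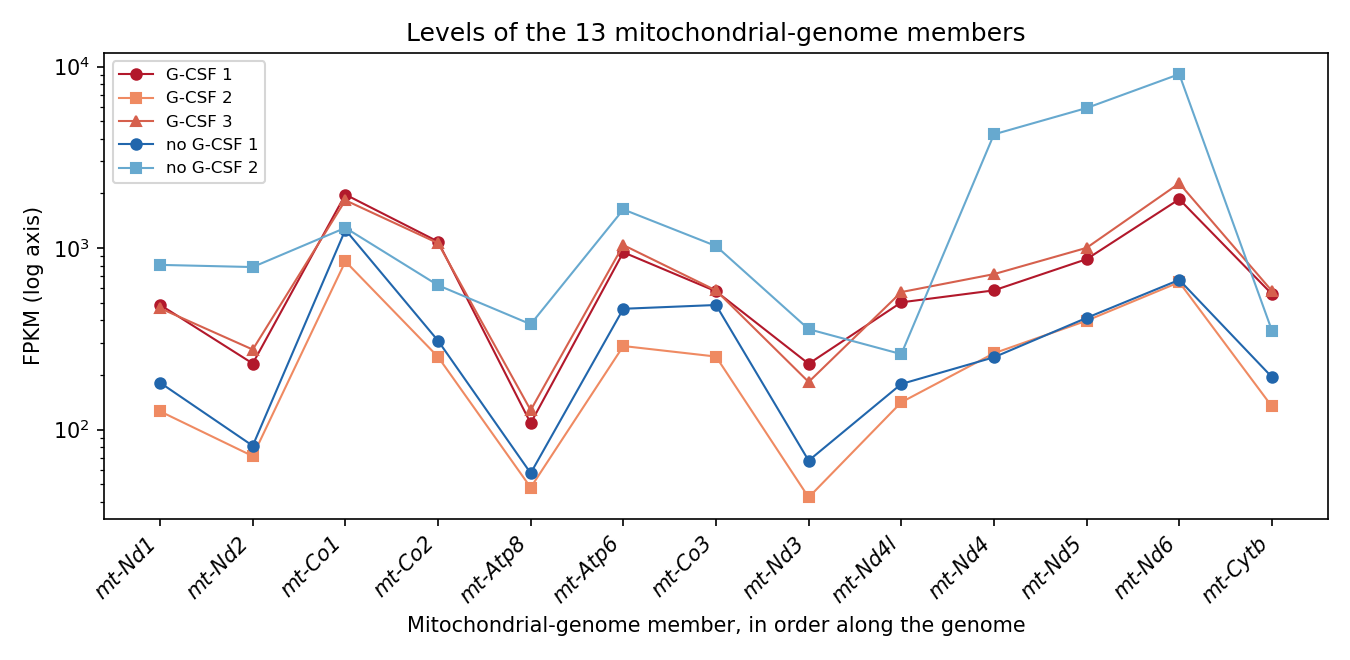
FPKM (log axis) of the 13 mitochondrial members in order along the mitochondrial genome, with 1 line per library, G-CSF in red shades and no G-CSF in blue shades. No G-CSF 2 lies far above the other libraries at mt-Nd4, mt-Nd5 and mt-Nd6 and is among them at mt-Co1, mt-Co2, mt-Nd4l and mt-Cytb, while G-CSF 2 and no G-CSF 1 run low together.

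mt-Atp8 measured 108, 47.9 and 128 FPKM in G-CSF 1 to 3, against 57.5 and 380 FPKM in no G-CSF 1 and 2. mt-Atp6 had 948, 288 and 1039 FPKM in the G-CSF libraries, against 463 and 1632 FPKM in the no-G-CSF libraries. mt-Atp8 and mt-Atp6, the mitochondrial subunits of ATP synthase, were highest in no G-CSF 2 and lowest in G-CSF 2, with log2 fold changes of -0.76 and -0.40. Their coding sequences overlap, so reads from the shared stretch cannot be given to one of them. The stretch is shown because its length limits how far the 2 genes can be told apart. It spans chrM:7927-7969 on the plus strand of GRCm38 (GENCODE M21 transcripts), 43 bases, all in the overlap, and no base is in capitals.
mt-Atp8 and mt-Atp6: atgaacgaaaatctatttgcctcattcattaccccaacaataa

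mt-Nd5 and mt-Nd6 lie on opposite strands and share 14 bases at chrM:13552-13565, printed as on the plus strand. Strand use in the authors' counting is not given in the sources used here, so reads from mt-Nd6 and from transcripts of the opposite strand cannot be told apart.
mt-Nd5 and mt-Nd6: ttaatctcgagtaa

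The ratio of the 2 genomes within a library does not depend on scaling between libraries. Summed FPKM of mitochondrial over nuclear members was 4.29, 1.86 and 4.64 in G-CSF 1, 2 and 3, against 3.25 and 12.5 in no G-CSF 1 and 2, or 3.60 ± 1.51 (SD, n = 3) and 7.90 ± 6.58 (SD, n = 2). The groups overlapped, since no G-CSF 1 lay between G-CSF 2 and the others. Without mt-Nd4, mt-Nd5 and mt-Nd6, a choice made after their values were seen, the ratio was 2.87, 1.17 and 2.91 with G-CSF, against 2.31 and 3.53 without. These 3 genes made up 33.1%, 37.3% and 37.3% of the mitochondrial sum with G-CSF, against 28.9% and 71.9% in no G-CSF 1 and 2. mt-Co1 made up 19.7%, 24.1% and 17.1% with G-CSF, against 27.4% and 4.83% without.

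**Figure D5:**
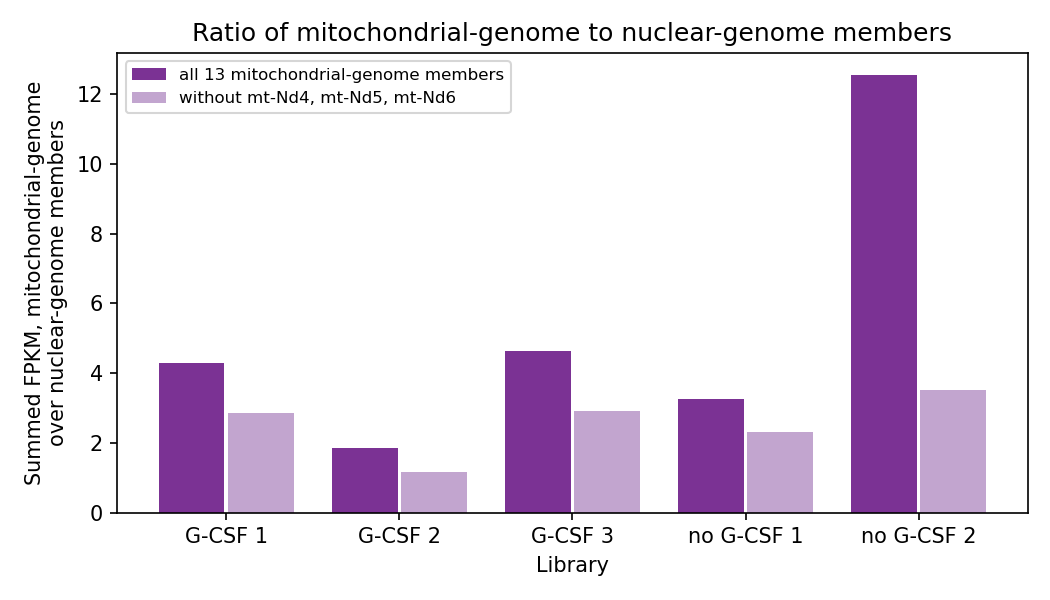
Summed FPKM of the 13 mitochondrial members over that of the nuclear members (vertical axis, ratio without unit) in each library, with all mitochondrial members (dark bars) and without mt-Nd4, mt-Nd5 and mt-Nd6 (light bars). No G-CSF 2 stands at 12.5 against 1.86 to 4.64 elsewhere, and at 3.53 against 1.17 to 2.91 once those genes are left out.

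Against no G-CSF 2 alone, 15 members were called higher and 7 lower by limma at an adjusted p under 0.05, beside 16.1% of all genes higher and 11.9% lower. Ndufa7, Ndufb3, Uqcrb and Sdha were among the 15, and mt-Nd4, mt-Nd5, Cyc1, Cox6a1, Cox7a1, Cox6b2 and Ndufaf8 were the 7. That fit assumes that the lone library varies as the G-CSF libraries do. Against no G-CSF 1 alone, 0 members were called either way, with a smallest limma adjusted p of 0.179, and before adjustment 19 members had p under 0.05 on the higher side and 0 on the lower, beside 10.7% and 7.84% of all genes. All 3 G-CSF libraries were above no G-CSF 1 for 65 of 90 nuclear members (43.4% of protein-coding genes tested), and above no G-CSF 2 for 57 of 90 (51% of protein-coding genes tested).

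Copies elsewhere in the genome make some levels uncertain, because the authors' treatment of reads that fit several places is not given. The table held 13 rows of processed pseudogenes named after members, and for some the copy was listed above its parent. Ndufb4c averaged 20.5 FPKM with G-CSF and 14.7 FPKM without, against 6.20 and 4.22 FPKM for Ndufb4 in the same groups. Ndufs5-ps, with 12.3 FPKM with G-CSF and 4.90 FPKM without, was level with Ndufs5. Cox5b-ps, a member by the rule since it is typed protein-coding, is named as a pseudogene and was kept apart from complex IV.

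Other genes of the same pathway were read from the same fit, and 0 were called in any of the lists. All 12 tested genes for electron carriers and exchange had a positive log2 fold change, with a median of 0.48. For 6 of them every G-CSF library lay above, beside 23.7% of protein-coding genes tested. Slc25a5 was at 77.8, 79.5 and 68.3 FPKM with G-CSF, against 67.9 and 27.9 FPKM without. Slc25a5, the exchanger of ADP and ATP across the inner membrane, was lowest in no G-CSF 2, and no G-CSF 1 lay just under G-CSF 3. Of 17 tricarboxylic acid cycle genes, 14 were positive, with a median of 0.56 and 7 above without overlap, beside the same 23.7%. Mdh2 measured 27.1, 21.5 and 28.4 FPKM in G-CSF 1 to 3, against 18.6 and 11.4 FPKM in no G-CSF 1 and 2. Mdh2, the malate dehydrogenase of the cycle, did not overlap between groups. The tricarboxylic acid cycle median was 0.24 without no G-CSF 2 and 0.88 without no G-CSF 1, and that of the carriers was 0.19 and 0.64.

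For genes that build or regulate the chain, the medians were nearer to 0. The 26 tested assembly factors of complexes II to V had a median of 0.15 and 17 positive, the 6 other complex I assembly factors 0.14 and 4 positive, and the 12 genes of ubiquinone synthesis 0.01 and 6 positive. For the 18 tested genes of mitochondrial DNA expression the median was 0.10, with 11 positive, and 1 of them, Tfb2m, a factor that opens mitochondrial promoters, was higher at an unadjusted p. Tfb2m had 4.44, 2.31 and 3.62 FPKM in the G-CSF libraries, against 1.84 and 1.03 FPKM in the no-G-CSF libraries. The 9 tested regulators had a median of -0.12, which was 0.32 without no G-CSF 2. Hif1a was at 33.6, 20.8 and 27.1 FPKM with G-CSF, against 8.03 and 5.77 FPKM without. Hif1a, the oxygen-sensing factor that shifts cells to glycolysis, was 1.83 ± 0.31 higher on the log2 scale (SE, limma adjusted p = 0.212), with no overlap. Esrra measured 16.7, 21.3 and 18.7 FPKM in G-CSF 1 to 3, against 15.2 and 47.8 FPKM in no G-CSF 1 and 2. Yy1 had 15.8, 15.8 and 15.3 FPKM in the G-CSF libraries, against 12.4 and 44.0 FPKM in the no-G-CSF libraries. Esrra and Yy1, regulators of nuclear respiratory genes, were highest in no G-CSF 2, and the other 4 libraries lay together.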

How the data were processed

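Transcript levels of 5 bulk RNA-seq libraries were taken from 1 table of FPKM deposited by the authors, with 1 column per library and none of another sample. Per the submitters' processing notes the build was mm10, and the tool they name, Cell Ranger 5.0.1, is for single cells. The aligner, counter, strandedness, annotation and monocyte sort of the bulk libraries are not given in the sources used here, since the protocol in the labels describes skin cells.

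The 16791 genes that reached an FPKM of 1 in 2 or more libraries were tested as log2(FPKM + 1) by limma 3.58.1 (R 4.3.3, two-sided, empirical Bayes with a trend and 3 residual degrees of freedom), and p-values were adjusted by Benjamini-Hochberg over all of them. The pseudocount of 1 understates the change of low genes. Every log2 fold change of a gene is on that scale, except those given for another pseudocount or for voom. Ratios of the genomes and ratios given as times another library used FPKM without a pseudocount. The fit was tested on simulated data. Members and lists were chosen with earlier results of these data known, and no p was adjusted over a list alone.

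FPKM times the exon length in GENCODE M21 (GRCm38) was a whole multiple of 1 read, within 0.001, for 94.3% of matched rows in all 5 libraries, and 89.6% of rows matched by symbol. These reads gave the depths and the voom alternative. Of the members, 102 of 107 matched. Replicate numbers were not used to pair libraries in the main fit. The deviations of same-numbered libraries from their group means correlated at -0.071 and -0.231. With only 2 no-G-CSF libraries, their deviations mirror each other, so these values cannot show if libraries were paired.

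By rule, all mitochondrial members, common core subunits and tissue isoforms were named, with the extremes, the highest level and the smallest p of each complex and list. Members outside it (Cox5b-ps, Ndufb4, Ndufs5 and Ndufaf2) and the pseudogene rows were named after their values were seen, and some list genes under the rule are given only within the counts of their list. Of the genes under the rule, 1 further gene is not reported here. Promoter windows came from RefSeq (GRCm38.p6). Alternatives were other pseudocounts (0.1 and 5), filters, scalings and limma settings, the replicate block and each library left out. Python 3.11.15 with pandas 2.3.3 and matplotlib 3.10.9 was used otherwise.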

Additional observations from a re-analysis of the deposited data

How the results depend on the processing

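The count of members called stayed at 0 in each direction under every alternative except the one that left out no G-CSF 1 (0 to 15 higher and 0 to 7 lower over the libraries left out), where a single shallow library stood for the untreated group. Over the libraries left out, the nuclear median ran from 0.41 to 0.59, the mitochondrial median from -1.40 to 0.84, and the log2 ratio of mean genome ratios, -1.13 with all libraries, from -1.80 to 0.15. With the replicate number as a block, in which G-CSF 3 has no partner, 0 members were called, 4 members had an unadjusted p under 0.05 on the higher side and 1 on the lower, and the medians were 0.41 and -0.73. With no filter on low values 0 of 107 members were called, and with a minimum FPKM of 5, 0 of 88.

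Of the named members, the following turned sign. Cox4i1 was -0.11 and Ndufs7 -0.017 with quantile normalization, and Ndufs7 was -0.024 with a common sum of protein-coding rows and -0.045 with the block. Cox6a1 was -0.30 with quantile normalization, -0.035 with the common sum, -0.017 with the block and -0.082 with voom. Cox8b was -0.35 with a pseudocount of 0.1, -0.21 with the block and -0.41 with voom. The cause was not tested. Depth limits no G-CSF 2 most, with a median of 64 reads per nuclear member.

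Over the libraries left out in turn, the log2 fold changes of the 23 named members that turned sign ranged as given for each: Atp5e -0.17 to 0.71, Atp5j -0.51 to 0.48, Cox4i1 -0.30 to 0.71, Cox5b -0.53 to 1.41, Cox6a1 -0.96 to 1.10, Cox6b1 -0.91 to 0.78, Cox8b -0.21 to 0.54, Cyc1 -1.49 to 0.49, Ndufaf8 -1.42 to 0.87, Ndufb1 -0.77 to 0.24, Ndufb2 -0.35 to 0.18, Ndufs7 -0.61 to 0.75, Ndufv1 -0.13 to 0.54, Uqcr11 -1.37 to 1.03, mt-Atp6 -1.31 to 0.51, mt-Atp8 -2.11 to 0.59, mt-Co1 -0.037 to 0.57, mt-Nd1 -1.40 to 0.75, mt-Nd2 -2.24 to 1.02, mt-Nd3 -1.55 to 0.84, mt-Nd4 -3.14 to 0.94, mt-Nd5 -3.07 to 0.77 and mt-Nd6 -2.70 to 1.07.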
